A study of Mus musculus with 14 samples.

Results

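The C/EBP factors and PU.1 are the transcription factors that set the granulocyte and monocyte programme, and their transcripts were followed in mouse leukaemia cells after loss of the fusion oncogene MLL-AF9 and after forced expression of Id2. The genes were taken by symbol from both deposited tables: Cebpa, Cebpb, Cebpd, Cebpe, Cebpz and the PU.1 gene, which the tables list under its older symbol Sfpi1 (now Spi1). All 6 were present, among 13406 genes in the doxycycline table and 14563 genes in the Id2 table, and the rule takes them by symbol alone. The genes, and the gene lists set beside them, were chosen with earlier results of these data known.

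All 14 RNA-seq libraries came from primary acute myeloid leukaemias of C57/BL6 mice, called Tet-Off MLL-AF9 AML. Foetal liver cells were given a retroviral vector with MLL-AF9 and a dsRED reporter under Tet-Off control and another vector with NRASG12D and the Tet-Off activator, and were put into lethally irradiated congenic mice. The leukaemia cells were taken from the spleens of terminally sick animals. In the first experiment, 4 libraries were from cells kept in vitro with doxycycline for 4 days, which turns MLL-AF9 off, and 4 from cells left untreated. The titles of 3 doxycycline libraries, all but replicate 3, end in -R, which no untreated title does and which the labels do not explain. The pair of replicate 4 carries the name TRIMA1 and the other 3 pairs TRIMA2. In the second, 3 libraries were made from cells infected with a retrovirus for Id2-GFP and 3 from cells infected with one for control-GFP, all sorted for GFP 2 days after transduction and still carrying MLL-AF9 and NRASG12D. No library had doxycycline without a Tet-Off MLL-AF9 gene, so the drug and the loss of MLL-AF9 cannot be told apart. The libraries were not stated to come from separate animals, so p-values measure the spread between these libraries, which may be technical in part.

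C/EBP proteins are basic leucine zipper factors that bind DNA as dimers and share much of their site preference. In myeloid cells C/EBPalpha is needed to form granulocyte-monocyte progenitors and restrains cell division, C/EBPbeta serves macrophages and granulocyte production under stress, C/EBPdelta serves inflammatory responses, and C/EBPepsilon drives late granule genes. PU.1 is an ETS factor required for macrophages and neutrophils, whereas Cebpz, despite its symbol, encodes no basic leucine zipper protein but a CCAAT-binding and nucleolar protein related to the yeast ribosome assembly factor Noc1.

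The 4 C/EBP genes proper are shown by the stretch of their coding sequence that encodes part of the DNA-binding basic region, because it is the feature they share and that PU.1 and Cebpz lack. The sequences are 60 bases of GENCODE M21 transcripts on GRCm38, given 5′ to 3′ in the sense of the messenger RNA, and capitals mark bases that differ from Cebpa.
Cebpa: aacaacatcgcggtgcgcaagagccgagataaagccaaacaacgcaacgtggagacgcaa
Cebpb: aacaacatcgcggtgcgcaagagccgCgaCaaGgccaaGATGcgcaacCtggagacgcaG
Cebpd: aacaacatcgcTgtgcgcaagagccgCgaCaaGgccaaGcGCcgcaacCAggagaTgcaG
Cebpe: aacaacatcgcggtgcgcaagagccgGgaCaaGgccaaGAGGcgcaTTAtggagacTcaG
Of these 60 bases, 51 of Cebpb, 49 of Cebpd and 48 of Cebpe were the same as in Cebpa. The longest identical run between whole transcripts of any pair of the 6 genes was 29 bases, between Cebpa and Cebpb. Apart from the printed stretch it was 17 bases, between Cebpb and Cebpd, and no run shared with Cebpz exceeded 12 bases. The read length and the treatment of reads with several matches are not given in the sources used here. On GRCm38 the genes lie at chr7:35119293-35121928 on the plus strand (Cebpa), chr2:167688915-167690418 plus (Cebpb), chr16:15887286-15891031 plus (Cebpd), chr14:54710360-54712174 minus (Cebpe), chr2:91082390-91115756 plus (Sfpi1) and chr17:78919006-78937066 minus (Cebpz). The whole span of Cebpz overlaps that of Cebpzos, on the opposite strand, by 1301 bases. With no strand stated, reads on bases that are exon in both genes cannot be told apart, and such bases were not counted.

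Values below are CPM, the reads recovered from the deposited log2 values and set to the authors' scaled library size. Changes are log2 fold changes ± SE from limma on the deposited log2 values, fitted over the whole table, and a gene passed at a Benjamini-Hochberg adjusted p under 0.05. Reads on the tabled genes numbered 17922644 to 25959766 per doxycycline or untreated library and 14051150 to 14948487 per transduced library. Every library had at least 91 reads on each of the 6 genes. Mll1 had 114 to 144 CPM with doxycycline, against 2000 to 6370 CPM untreated, and Id2 had 952 to 1630 CPM in Id2-GFP cells, against 25.8 to 51.5 CPM in control-GFP cells, which accords with the labels. All 8 myeloid progenitor markers were listed in both tables. Cd3e, Ncr1 and Col1a1, defining markers of T, NK and stromal cells, were not among the tabled genes. The third control-GFP library stood apart: 34 of its tabled genes had no read, against 1 and 2 in the other control-GFP libraries. Id2-GFP replicate 3 had 13 such genes, against 3 and 2 in the other Id2-GFP libraries. Id2 results of the 6 genes and the named list genes are also given without the third control-GFP library. That leaves Id2-GFP replicate 3 without its partner of the same number.

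After 4 days of doxycycline, 5 of the 6 genes passed in the fit without a block: Cebpb, Cebpd and Sfpi1 rose, and Cebpa and Cebpz fell. With the pair label as a block all 6 passed, Cebpe as a riser, in a fit where 69.6% of all genes passed. Cebpb moved most, averaging 117 ± 7.20 CPM with doxycycline and 61.0 ± 12.2 CPM untreated (SD, n = 4 each). The values did not overlap between the groups for any of the 5, so that replicate 3, whose doxycycline title lacks the -R, lay on the same side as the others. Without both TRIMA1 libraries the same 5 passed. Change was common in this comparison: 65.1% of all genes passed, 31.3% of genes rose and 33.8% fell, and the groups did not overlap for 60.0% of genes. With only 6 genes, nothing is read from the share of them that passed, and the result lies in which genes moved which way. In bulk RNA, fewer cells of a type and less RNA per cell cannot be told apart.

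**Figure D1:**
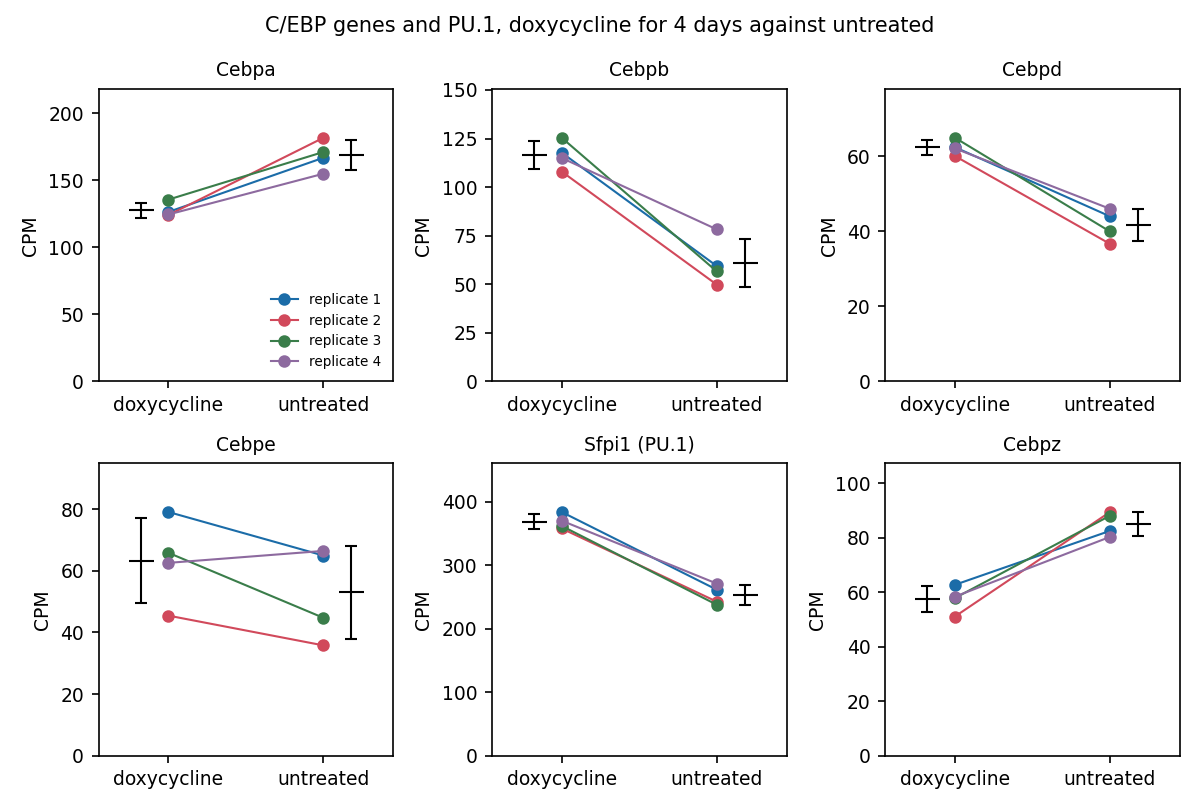
CPM of each gene (vertical axis, from 0) in the 4 doxycycline and the 4 untreated libraries; lines join libraries with the same pair label, and black marks give the mean and SD of each group. The doxycycline libraries lie above the untreated ones for Cebpb, Cebpd and Sfpi1 and below them for Cebpa and Cebpz, while Cebpe overlaps.

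Cebpa had 126, 124, 136 and 124 CPM in the doxycycline libraries of replicates 1 to 4, against 167, 182, 171 and 155 CPM in the untreated ones. All 4 doxycycline libraries were below all 4 untreated libraries and lay close together. Its log2 CPM fell by 0.40 ± 0.06 (limma adjusted p = 0.000169), a fold of 1.32, and the fall within pairs was between 0.32 and 0.55. The size was larger than that of 52.9% of all genes, so the fall was middling for this comparison.

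Cebpb, which differed the other way, had 118, 108, 125 and 115 CPM with doxycycline, against 59.4, 49.8, 56.6 and 78.3 CPM untreated. The lowest doxycycline value exceeded the highest untreated one, which came from replicate 4. The log2 change was 0.95 ± 0.12 (limma adjusted p = 9.04e-05), a fold of 1.93. The pairs rose by 0.99, 1.12, 1.15 and 0.56, the smallest again in replicate 4, and 83.1% of all genes changed by less.

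Cebpd had 62.4, 60.1, 64.9 and 62.1 CPM with doxycycline, against 43.97, 36.6, 39.9 and 46.0 CPM untreated. The treated libraries were all higher and spread over a narrower range. It rose by 0.59 ± 0.07 (limma adjusted p = 6.7e-05), a fold of 1.503, with pair differences of 0.43 to 0.71.

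Cebpe, the late granulocytic member, had 79.1, 45.4, 65.8 and 62.6 CPM with doxycycline, against 64.9, 35.8, 44.7 and 66.4 CPM untreated. The groups overlapped, and replicate 2 was the lowest of both. The log2 change was 0.28 ± 0.22 (limma adjusted p = 0.300, 95% interval -0.23 to 0.78). With the pair label as a block the same change had an SE of 0.09 and passed (adjusted p = 0.0271, interval 0.06 to 0.49), in a fit where 69.6% of all genes passed. Cebpe was higher with doxycycline in 3 of 4 pairs, by 0.28, 0.35 and 0.56, and differed by -0.09 in replicate 4.

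Sfpi1, encoding PU.1, had 384, 358, 362 and 370.3 CPM with doxycycline, against 262, 243, 238 and 271 CPM untreated. Every treated library was higher, and the groups were far apart for their spread. The rise was 0.54 ± 0.05 (limma adjusted p = 1.64e-05), a fold of 1.46, and its pair differences of 0.45 to 0.61 had the narrowest range of the 6 genes.

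Cebpz, the nucleolar protein gene, had 62.8, 51.1, 57.9 and 58.4 CPM with doxycycline, against 82.6, 89.5, 88.1 and 80.3 CPM untreated. All treated libraries were lower. It fell by 0.57 ± 0.07 (limma adjusted p = 5.65e-05), a fold of 1.48, and by 0.40 to 0.81 within pairs.

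These sizes depend on the scaling. The authors' factors were 0.891 to 0.951 for the doxycycline libraries and 1.068 to 1.101 for the untreated ones, and with plain library totals the median change of all genes was -0.27, in place of -0.03. With totals 2702 genes rose (20.2%) and 6912 fell (51.6%), in place of 4198 and 4535. On that scale the changes were -0.64 for Cebpa, 0.71 for Cebpb, 0.35 for Cebpd, 0.04 for Cebpe, 0.30 for Sfpi1 and -0.81 for Cebpz, and the same 5 passed.

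**Figure D2:**
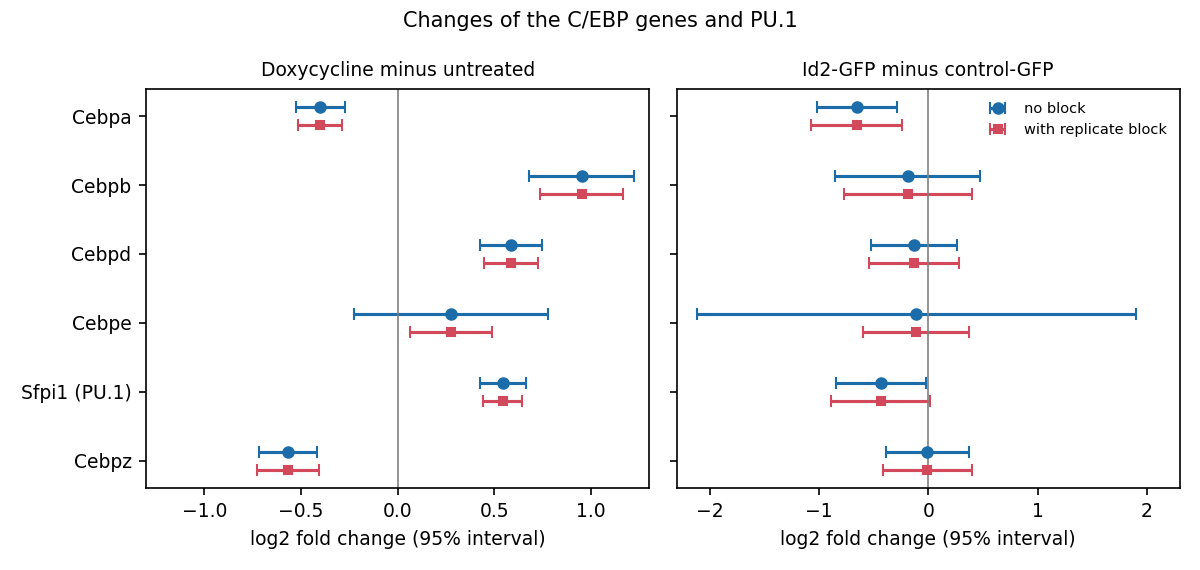
Log2 fold change (horizontal axis) of each gene with its 95% interval, doxycycline minus untreated on the left and Id2-GFP minus control-GFP on the right; circles are from the fit without a block and squares from the fit with the replicate block. With doxycycline, intervals of both fits leave out 0 for every gene but Cebpe; with Id2-GFP, both leave it out for Cebpa.

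Levels were set against each other per kilobase of exon, so that gene length does not enter. With doxycycline the order of the levels was Sfpi1 (137 ± 4.26 CPM per kb), Cebpb (77.5 ± 4.79), Cebpe (51.0 ± 11.2), Cebpa (48.4 ± 2.05), Cebpd (16.7 ± 0.53) and Cebpz (12.4 ± 1.03) (SD, n = 4). In untreated cells it was Sfpi1 (94.0 ± 5.81 CPM per kb), Cebpa (63.9 ± 4.21), Cebpe (42.7 ± 12.2), Cebpb (40.6 ± 8.10), Cebpz (18.3 ± 0.94) and Cebpd (11.1 ± 1.11). PU.1 transcripts led in both groups. Cebpe overlapped with Cebpa under doxycycline and with Cebpb without it, and the other neighbours in each order did not overlap. Per kb, Cebpb and Cebpa thus changed places: the Cebpb level was 1.53 to 1.63 times that of Cebpa in the doxycycline libraries, and 0.481 to 0.886 times in the untreated ones. The change of order rests on the exon lengths. In CPM Cebpa stayed above Cebpb in each doxycycline library (means of 128 and 117 CPM).

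The make-up of the C/EBP transcripts was also read within each library, as the share of each of Cebpa, Cebpb, Cebpd and Cebpe in their summed reads per kb, which needs no scaling between libraries. The share of Cebpa was 23.2%, 27.4%, 25.1% and 24.8% with doxycycline, against 37.9%, 49.0%, 43.5% and 33.3% untreated. The share of Cebpb was 37.9%, 41.9%, 40.7% and 40.1% with doxycycline, against 23.7%, 23.6%, 25.2% and 29.5% untreated. Neither gene's shares overlapped between the groups. The mean differences were -15.8 percentage points for Cebpa and 14.7 for Cebpb. Cebpd took 8.64 ± 0.54% with doxycycline and 7.02 ± 0.09% untreated. Each of the 3 gave a two-sided exact permutation p of 0.0286, the smallest that 4 against 4 allows. Adjusted over the 8 share tests it was 0.0762, where the design allows no value below 0.0571, so no share could have passed. Cebpe took 26.1 ± 3.89% and 26.6 ± 5.16% (exact permutation p = 0.971).

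**Figure D3:**
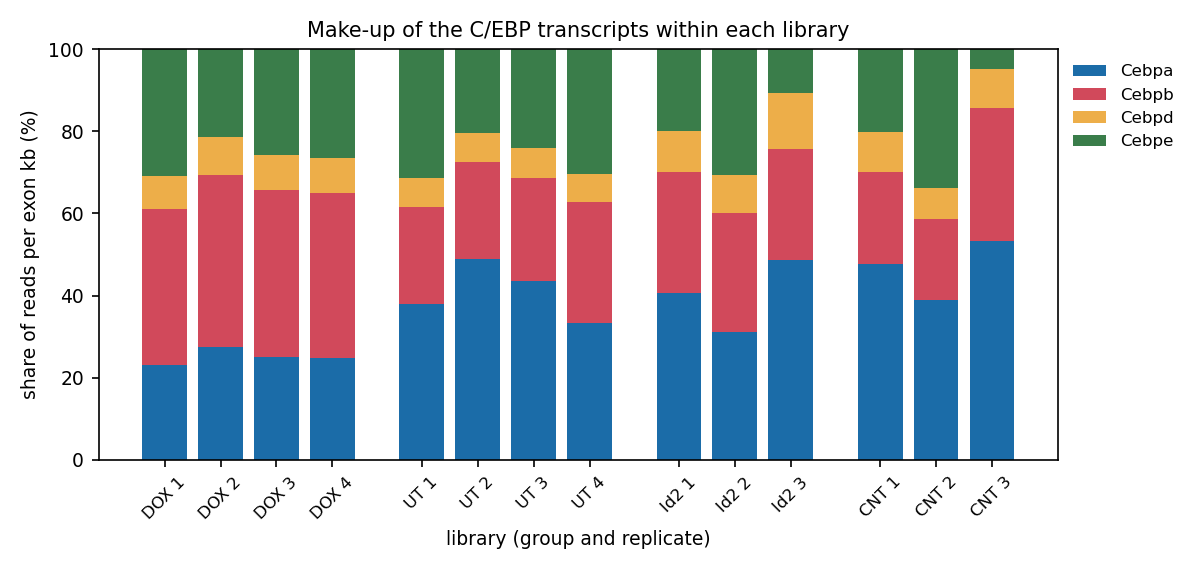
Stacked bars of the share (%) of each C/EBP gene in their summed reads per exon kilobase, one bar per library; DOX is doxycycline, UT untreated, Id2 Id2-GFP and CNT control-GFP, numbered by replicate. Cebpb takes 37.9% to 41.9% of the DOX bars and 23.6% to 29.5% of the UT bars, while the Cebpe share follows the replicate number in the Id2 and CNT bars.

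The promoters of Cebpa and Cebpb, the pair that moved in opposite directions, are shown as the windows from 250 bases before to 50 bases after the start site (RefSeq, GRCm38.p6). Of the 6 genes these 2 were matched in the promoter table. Capitals mark exact matches, on either strand, to any of 5 motifs. These were the CCAAT box (its letters CCAAT), the TATA box (letters TATAAA), the core of a C/EBP site (letters TTGCG), the half-site of a cyclic AMP response element, or CRE (letters TGACG), and the core of an ETS site (letters GAGGAA).
Cebpa, chr7:35119043-35119342, plus strand: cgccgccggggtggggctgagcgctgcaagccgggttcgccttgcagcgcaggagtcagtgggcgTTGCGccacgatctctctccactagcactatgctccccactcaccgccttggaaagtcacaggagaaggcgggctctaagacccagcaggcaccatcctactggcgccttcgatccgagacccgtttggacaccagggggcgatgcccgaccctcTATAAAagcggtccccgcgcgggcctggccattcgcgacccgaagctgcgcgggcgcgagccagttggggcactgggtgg
Cebpb, chr2:167688665-167688964, plus strand: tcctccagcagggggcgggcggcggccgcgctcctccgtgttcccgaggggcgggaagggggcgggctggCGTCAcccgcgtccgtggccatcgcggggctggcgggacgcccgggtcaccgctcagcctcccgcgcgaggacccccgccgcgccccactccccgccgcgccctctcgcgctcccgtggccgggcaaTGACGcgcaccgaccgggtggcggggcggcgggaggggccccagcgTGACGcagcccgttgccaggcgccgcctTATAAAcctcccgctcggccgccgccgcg
The Cebpa window held TTGCG at -185 and TATAAA at -30, counted from the start site. The Cebpb window held TGACG at -53 and -7 on its own strand and at -180 on the other, and TATAAA at +22. No matches overlapped. Of 32851 promoter windows, 17.4% held the C/EBP core, 20.8% the CRE half-site, 13.6% the TATA box, 37.4% the CCAAT box and 28.3% the ETS core. Neither gene's window held the CCAAT box or the ETS core. Such matches describe the letters and are not shown to be sites in these cells.

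Most genes that PU.1 is known to act on in myeloid cells rose as Sfpi1 did. Of 22 measured, 20 rose, 1 fell and 1 did not pass. Their median log2 change was 1.48, beside -0.03 over all genes. Over all genes 31.3% rose and 33.8% fell, the shares to set beside this and the later list counts with doxycycline. Cybb, the oxidase subunit of phagocytes, averaged 1153 ± 81.2 CPM with doxycycline and 227.5 ± 33.1 CPM untreated (SD, n = 4 each), a log2 change of 2.35 ± 0.10 (limma adjusted p = 3.3e-07). Cd68, a lysosomal membrane protein of macrophages, had 823 to 966 CPM with doxycycline, against 151 to 209 CPM untreated. Fcer1g, the signalling chain of Fc receptors, changed by 1.01 ± 0.05 (limma adjusted p = 6.09e-07). None of these 3 genes had overlapping groups, and the changes of Cybb and Cd68 (2.35 and 2.32) were several times that of Sfpi1 itself.

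Of 14 genes known as C/EBPbeta targets in macrophages 10 were tabled, of which 8 rose and none fell, with a median log2 change of 1.98. Low genes can be tabled through the group where they are high: Saa3, Il1b and Nos2, named for their low values, averaged 4.25, 5.79 and 1.72 CPM with doxycycline, against 0.308, 0.831 and 0.366 CPM untreated. Above a mean log2 CPM of 2 there were 5 of these genes, and all 5 rose. The chemokine gene Ccl2 averaged 63.7 ± 13.1 CPM with doxycycline and 4.55 ± 1.799 CPM untreated, a change of 3.87 ± 0.28 (limma adjusted p = 2.73e-06). The scavenger receptor gene Msr1 changed by 3.67 ± 0.30 and the cytokine gene Tnf by 2.05 ± 0.13. The nuclear receptor gene Nr4a1 had 17.9 to 22.8 CPM with doxycycline, against 9.66 to 10.7 CPM untreated. All 4 were higher in every treated library.

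Of 19 measured granulocytic genes known to be C/EBP targets, 15 rose and 2 fell, with a median log2 change of 2.33. The gelatinase gene Mmp9, of late granules, had 532 to 1390 CPM with doxycycline, against 15.4 to 73.1 CPM untreated, and changed by 4.96 ± 0.45 (limma adjusted p = 1.05e-05). Lyz2, encoding lysozyme, had 21400 to 33100 CPM with doxycycline, against 2180 to 4840 CPM untreated. The receptor genes Csf3r and Il6ra, for granulocyte colony-stimulating factor and interleukin 6, changed by 1.64 ± 0.13 and 1.35 ± 0.11. Elane and Prtn3, serine proteases of primary granules that were singled out after their values were seen, were the 2 that fell, by 1.97 ± 0.19 and 1.35 ± 0.14. Both were lower in every doxycycline library than in any untreated one. Mpo, another primary granule gene, fell too with the replicate block (-1.20, adjusted p = 0.000375, against 0.119 without it).

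**Figure D4:**
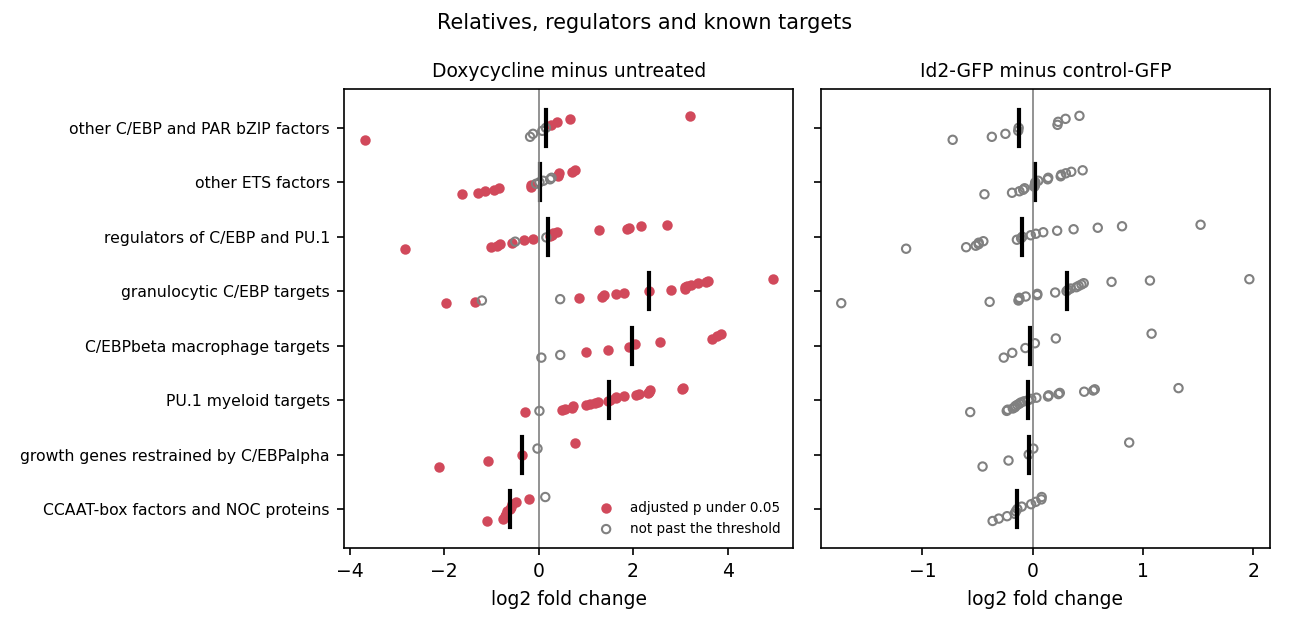
Log2 fold change (horizontal axis) of each gene in 8 lists, doxycycline minus untreated on the left and Id2-GFP minus control-GFP on the right; filled points passed an adjusted p of 0.05, open points did not, and black bars are list medians. With doxycycline the medians of the 3 target lists lie between 1.48 and 2.33 and that of the CCAAT-box and NOC list at -0.60; no point passed with Id2-GFP.

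Markers of cell types moved with these lists. The summed level of 5 macrophage markers, all tabled, was 2410 to 2740 CPM with doxycycline, against 509 to 676 CPM untreated, and that of 8 myeloid progenitor markers was 4530 to 5500 CPM with doxycycline, against 2540 to 2900 CPM untreated. The progenitor sum did not stand for all its genes. Itgam, an integrin chain that mature myeloid cells carry too, had 2410 to 3120 CPM with doxycycline, against 930 to 1140 CPM untreated. Kit and Cd34, the stem and progenitor cell markers of the list, went the other way: Kit had 2.91 to 7.81 CPM with doxycycline, against 38.4 to 67.3 CPM untreated, and Cd34 had 155 to 270 CPM with doxycycline, against 416 to 555 CPM untreated. Of 5 platelet and megakaryocyte markers 3 were tabled, with sums of 6.02 to 13.1 CPM with doxycycline, against 22.1 to 47.3 CPM untreated. Most of that sum was Itga2b, with 3.83 to 10.4 CPM with doxycycline, against 19.5 to 43.8 CPM untreated. Gp9 was lower too, but Pf4 went the other way, with 1.99 to 3.54 CPM with doxycycline, against 0.875 to 2.0 CPM untreated. Of 4 mast cell and basophil markers 2 were tabled, with sums of 73.9 to 111 CPM with doxycycline, against 120 to 215 CPM untreated. The single tabled T, B and NK cell markers had at most 22.7 CPM in any of these libraries. The PU.1 target list holds all 5 macrophage markers (Csf1r, Cd14, Mrc1, Cd68 and Emr1), so the 2 are not separate readouts, and shares Itgam and Fcgr3 with the progenitor markers. The granulocytic list shares Csf3r and Mpo with the progenitor markers. The part of these shifts in the changes of the C/EBP genes and PU.1 was not tested.

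Of 5 measured growth genes that C/EBPalpha is known to restrain, 3 fell and 1 rose, with a median of -0.35, and with library totals 4 fell and 1 rose (median -0.59). Over all genes 33.8% fell, or 51.6% with totals, so nothing is read from the count of so short a list. Myc had 53.2 to 74.3 CPM with doxycycline, against 133 to 148 CPM untreated, and fell by 1.07 ± 0.10 (limma adjusted p = 9.59e-06). Sox4, a progenitor transcription factor gene, fell by 2.102 ± 0.26 and E2f1, a cell cycle factor gene, by 0.35 ± 0.05. E2f2, of the same family, went the other way and rose by 0.76 ± 0.09.

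The lists of relatives and regulators moved in both directions. Among 9 genes of other bZIP factors, of the C/EBP, ATF and PAR types, 4 rose and 1 fell. Atf3, a stress-induced gene of the ATF type, averaged 71.4 ± 8.85 CPM with doxycycline and 7.84 ± 1.91 CPM untreated. It changed by 3.21 ± 0.18 (limma adjusted p = 7.06e-07). Ddit3, which encodes the C/EBP relative CHOP, rose by 0.66 ± 0.11. Nfil3 changed by 0.26 ± 0.10 (adjusted p = 0.0470) with overlapping groups, and did not pass in 11 of the 21 alternatives run, library totals and the loss of several single libraries among them. Hlf, a stem cell gene, had 9 reads over all doxycycline libraries, against 189 over the untreated ones. A gene this low can be tabled through the group where it is high. Above a mean log2 CPM of 2 there were 8 genes of the list, of which 4 rose and none fell. With the replicate block 2 genes fell, the second being Atf4 (adjusted p = 0.0344), and with library totals 2 rose and 3 fell.

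Among 17 measured other ETS factor genes 5 rose and 7 fell, with a median of 0.02, and with library totals 3 rose and 10 fell (median -0.22). The 4 with the smallest p all fell: Etv6 by 1.14 ± 0.06, Erg by 1.63 ± 0.10, Elf1 by 0.95 ± 0.06 and Elk3 by 0.84 ± 0.05 (limma adjusted p between 4.54e-07 and 1.42e-06). Erg, a stem cell factor gene, had 24.0 to 33.7 CPM with doxycycline, against 81.3 to 97.1 CPM untreated. The 5 that rose, as Sfpi1 did, were Etv3 (0.76), Ets2 (0.70), Elk1 (0.44), Spic (0.42) and Etv5 (0.41), named after their values were seen. With the replicate block Erf passed as another riser (0.24, adjusted p = 0.0355, against 0.0562 without the block).

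Among 18 measured genes known to regulate C/EBP factors or PU.1, 9 rose and 7 fell, and with library totals 5 rose and 8 fell. Above a mean log2 CPM of 2 there were 16 of them, of which 7 rose and 7 fell. Myb, a progenitor factor gene, had 73.8 to 99.3 CPM with doxycycline, against 552 to 653 CPM untreated, and fell by 2.82 ± 0.09 (limma adjusted p = 1.91e-07). Jun, a PU.1 partner in monocytes, had 85.1 to 122 CPM with doxycycline, against 22.8 to 31.7 CPM untreated. Egr2, a factor of macrophage fate, had 3.33 to 5.07 CPM with doxycycline, against 0.604 to 1.17 CPM untreated, a change of 2.16 ± 0.23. So low a gene can be tabled through the group where it is high, and Egr2 was not measured in the Id2 comparison. Calr, whose product calreticulin can bind Cebpa messenger RNA, fell by 0.82 ± 0.08.

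Most genes of the CCAAT-box and NOC list, which also holds other ribosome biogenesis genes, fell as Cebpz did. Of the 11 measured, none rose and 10 fell, with a median of -0.60, and over all genes 33.8% fell. The CCAAT-box factor subunits, named after their values were seen, moved least. Nfyc changed by -0.48, Nfyb by -0.20 with overlapping groups, and Nfya by 0.14 without passing. Rrp12 and Pdcd11, ribosome biogenesis genes, fell by 1.101 ± 0.06 and 0.72 ± 0.05, and Noc4l and Noc2l, of the NOC family, by 0.76 ± 0.04 and 0.56 ± 0.04 (limma adjusted p between 6.72e-07 and 3.3e-06). Noc4l had 29.3 to 30.9 CPM with doxycycline, against 50.5 to 52.2 CPM untreated. With the replicate block Nfya, a CCAAT-box factor subunit named after its values were seen, passed as 1 riser (0.14, adjusted p = 0.0189, against 0.0538 without the block).

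With forced Id2, an inhibitor of E-protein DNA binding, none of the 6 genes passed in limma after 2 days. Over all genes 2 of 14563 passed, 0.0137%, or 3 genes without the third control-GFP library, and 357 genes, 2.45%, had an unadjusted p under 0.05. Cebpa and Sfpi1 were among those 357, and both were lower in every Id2-GFP library than in every control-GFP library, which held for 3.77% of genes. The groups did not overlap for 6.95% of genes in all, and 3.18% were higher in every Id2-GFP library. The adjusted p was 0.998 for each of the 6 genes. A p that misses the threshold does not show that a gene was unaffected, and the intervals are given with each gene.

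**Figure D5:**
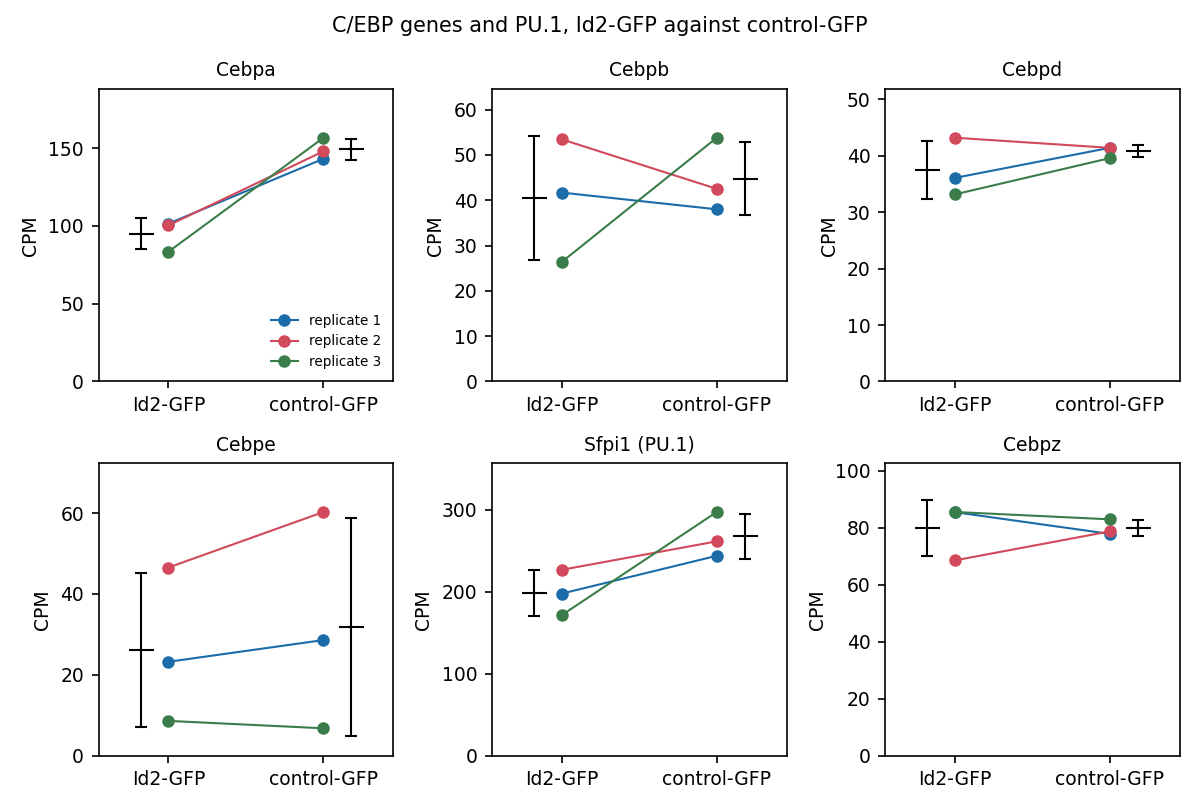
CPM of each gene (vertical axis, from 0) in the 3 Id2-GFP and the 3 control-GFP libraries; lines join libraries with the same replicate number, and black marks give the mean and SD of each group. Cebpa and Sfpi1 are lower in all Id2-GFP libraries, and Cebpe splits by replicate number in both groups.

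Cebpa had 101, 100.3 and 83.3 CPM in the Id2-GFP libraries of replicates 1 to 3, against 143, 148 and 157 CPM in the control-GFP libraries. The groups did not overlap. The log2 difference was -0.66 ± 0.16 (limma adjusted p = 0.998, unadjusted p = 0.00351, 95% interval -1.02 to -0.29), with pair differences of -0.50, -0.56 and -0.91. In size it exceeded 93.4% of all genes. With the replicate block the adjusted p was 0.352. Without the third control-GFP library the difference was -0.62 (adjusted p = 0.967).

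Sfpi1 had 198, 227 and 171 CPM in Id2-GFP cells, against 244, 261 and 297 CPM in control-GFP cells. The groups did not overlap, and replicate 3 held both the lowest Id2-GFP and the highest control-GFP value. The difference was -0.43 ± 0.18 (limma adjusted p = 0.998, unadjusted p = 0.0416, interval -0.85 to -0.02). With the replicate block the interval took in 0 (-0.887 to 0.018, unadjusted p = 0.0582, adjusted p = 0.826). Without the third control-GFP library the difference was -0.36 (unadjusted p = 0.0606), and without both libraries of replicate 3 it was -0.25.

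Cebpb had 41.7, 53.5 and 26.4 CPM in Id2-GFP cells, against 38.0, 42.5 and 53.8 CPM in control-GFP cells. It was higher with Id2-GFP in replicates 1 and 2 and lower in replicate 3. The difference was -0.19 ± 0.28 (limma adjusted p = 0.998, interval -0.85 to 0.47), -0.05 without the third control-GFP library, and 0.23 without both libraries of replicate 3. Cebpd had 36.1, 43.2 and 33.2 CPM in Id2-GFP cells, against 41.4, 41.4 and 39.6 CPM in control-GFP cells, and differed by -0.13 ± 0.17 (adjusted p = 0.998, interval -0.53 to 0.27). Cebpz had 85.4, 68.5 and 85.5 CPM in Id2-GFP cells, against 77.8, 78.7 and 82.9 CPM in control-GFP cells, with a difference of -0.01 ± 0.16 (interval -0.38 to 0.37). The groups overlapped for these 3 genes. Without the third control-GFP library Cebpd differed by -0.15 and Cebpz by 0.02.

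Cebpe followed the replicate number and not the vector. It had 23.2, 46.6 and 8.602 CPM in Id2-GFP cells, against 28.6, 60.3 and 6.77 CPM in control-GFP cells. Replicate 2 was the highest and replicate 3 the lowest in both groups. The difference was -0.11 ± 0.86 (limma adjusted p = 0.998, interval -2.12 to 1.90), and the SE was 0.22 with the replicate block (adjusted p = 0.936, interval -0.60 to 0.38). Without the third control-GFP library it was -0.98 (adjusted p = 0.993), but Id2-GFP replicate 3, the lowest of its group, then had no partner. Within pairs the differences were -0.3, -0.37 and 0.34.

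Per kilobase of exon, the order in Id2-GFP cells was Sfpi1 (73.6 ± 10.3 CPM per kb), Cebpa (36.05 ± 3.85), Cebpb (26.9 ± 9.03), Cebpe (21.05 ± 15.4), Cebpz (17.1 ± 2.1) and Cebpd (10.01 ± 1.38) (SD, n = 3). In control-GFP cells it was Sfpi1 (99.2 ± 10.1 CPM per kb), Cebpa (56.6 ± 2.58), Cebpb (29.8 ± 5.41), Cebpe (25.7 ± 21.7), Cebpz (17.1 ± 0.59) and Cebpd (10.9 ± 0.28). The order was the same in both groups. Cebpe overlapped with its neighbours Cebpb and Cebpz in both, and Cebpa overlapped with Cebpb in Id2-GFP cells but not in control-GFP cells. Within libraries, Cebpa took 40.1 ± 8.84% of the C/EBP reads per kb in Id2-GFP cells and 46.7 ± 7.29% in control-GFP cells, and Cebpb took 28.4 ± 1.25% and 24.7 ± 6.62%. The exact permutation p-values of the 4 shares were 0.3 to 1.0, where 3 against 3 cannot go below 0.1. Without the third control-GFP library the shares differed by -3.23 percentage points for Cebpa, 7.503 for Cebpb, 2.37 for Cebpd and -6.65 for Cebpe. Here too Id2-GFP replicate 3 had no partner, so these differences also hold the spread between replicate numbers.

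No gene of the 8 lists passed with Id2-GFP, and the list medians lay between -0.14 and 0.31, beside -0.03 over all genes. The medians lay between -0.18 and 0.24 without the third control-GFP library, and that of the granulocytic targets was 0.06 in place of 0.31. The gene with the smallest p was Ctss, a lysosomal protease and PU.1 target, with 71.0, 142 and 118 CPM in Id2-GFP cells, against 29.9, 46.8 and 54.5 CPM in control-GFP cells. The log2 difference was 1.32 ± 0.32 (limma adjusted p = 0.998), and it passed with the replicate block (adjusted p = 0.0324). It was 1.502 without the third control-GFP library (adjusted p = 0.849). Mmp8, a late granule collagenase gene, passed only with the block too (1.96 ± 0.79, adjusted p = 0.0104, against 0.998), with 12.7, 72.4 and 25.5 CPM in Id2-GFP cells and 3.02, 18.9 and 6.77 CPM in control-GFP cells. It was higher with Id2-GFP in each pair and highest in replicate 2 of both groups, as Cebpe was. Mpo, a primary granule gene named after its values were seen, passed in the other direction with the block (-1.74, adjusted p = 0.0359, against 0.998). Mmp8 differed by 1.91 and Mpo by -1.41 without the third control-GFP library (adjusted p = 0.993 for each). With the block 0.24% of all genes passed.

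Of the other list genes named for their small p, several differed in the direction of Cebpa without passing (limma adjusted p = 0.998 for each). Calr differed by -0.52 ± 0.22, E2f1 by -0.46 ± 0.19, Etv4 by -0.44 ± 0.20, Atf4 by -0.37 ± 0.19 and Egr1 by -1.15 ± 0.42, and all 5 were lower in each Id2-GFP library than in any control-GFP library. Elk1 (0.35 ± 0.22) and Sox4 (0.87 ± 0.45) were higher in each. Genes chosen for a small p in this comparison tend not to overlap by that choice, and over all genes 3.77% were lower and 3.18% higher in every Id2-GFP library. For Nfil3 (-0.73 ± 0.31), Csf1r (-0.57 ± 0.33), Mmp9 (1.06 ± 0.42), Ccl2 (1.08 ± 0.67), Nr4a1 (-0.19 ± 0.23), Noc4l (-0.36 ± 0.22) and Rrp12 (-0.31 ± 0.20) the groups overlapped. All 14 kept their direction without the third control-GFP library (adjusted p = 0.993 for each), and the difference shrank most in proportion for Elk1, to 0.14, and Atf4, to -0.22. The summed macrophage markers were 372 to 609 CPM in Id2-GFP cells, against 429 to 527 CPM in control-GFP cells, and the progenitor markers 2750 to 3080 CPM in Id2-GFP cells, against 2010 to 3030 CPM in control-GFP cells. The 2 tabled platelet and megakaryocyte markers summed to 20.3 to 40.2 CPM in Id2-GFP cells, against 40.2 to 93.7 CPM in control-GFP cells, and were lower with Id2-GFP in each pair. The 2 tabled mast cell and basophil markers summed to 111 to 369 CPM in Id2-GFP cells, against 99.7 to 282 CPM in control-GFP cells. Their sum, mostly Cpa3, was higher with Id2-GFP in each pair, while Mcpt8 was lower in replicates 1 and 3. The 2 tabled erythroid markers summed to 0.697 to 2.22 CPM in Id2-GFP cells, against 0.723, 0.207 and 15.8 CPM in the control-GFP libraries of replicates 1 to 3. The part of these markers in the Id2 differences was not tested.

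The genes whose pattern over all 14 libraries was most like each factor were found among 12672 genes by the root mean square difference of log2 values, after centring each gene within its table. For Cebpa these were Ppfia1 (0.0984), Cdt1 (0.102) and Tube1 (0.108), each lower with doxycycline and, without passing, lower with Id2-GFP. Genes picked for likeness over these same libraries tend to share the directions of their factor by that choice. For Cebpb the genes most alike were Prdx5 (0.128), Esd (0.158) and Fez2 (0.162), and for Cebpd Spryd3 (0.0862) and Tnip1 (0.0876). For Sfpi1 they were Cenpb (0.081), Tmem9b (0.0887) and Bin3 (0.0909), and for Cebpz Uri1 (0.0619), Srsf6 (0.069) and Mat2a (0.0738). The patterns most like Cebpe, Mtus1 (0.229), Flt4 (0.291) and Amotl1 (0.308), were farther from it than those of the other 5 were from theirs. Pearson's r of these genes with their factor was 0.920 to 0.971, a description over libraries that share groups and pairs.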

How the data were processed

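RNA was sequenced from 400 ng of total RNA per library with an Illumina TruSeq V2 kit, per the labels' protocols. CASAVA 1.8.2, TopHat2, HTSeq and limma, with the build mm10 (GRCm38), stand in the submitters' processing notes without order. The authors deposited log2 CPM, 1 table per experiment, each normalized apart. From the values, each is the log2 of reads plus 0.5 over a scaled library size: 100% came out as whole reads within 0.01 read. The doxycycline table had 13419 entries, and 13 of them repeated another.

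The log2 values were tested per table with limma 3.58.1 (R 4.3.3, eBayes with a trend, two-sided) on 4 against 4 and 3 against 3 libraries. The fit without a block was also checked on simulated data. The simulated libraries were independent, so that check covers neither the pairs nor a library that stands apart. Same-numbered libraries deviated together from their group means (correlations of 0.454 to 0.552 in the doxycycline set and 0.472 to 0.581 in the Id2 set, every other pairing below 0), so the pair labels and numbers in the titles pair the libraries. Blocked values stand where they change the call of one of the 6 genes or of a list gene. Exon lengths and coordinates are from GENCODE M21. Alternatives covered the block, scaling, offset, low-value filter, variance trend, weights and left-out libraries. The 6 genes and the lists were chosen with earlier results of these data known. Named are these genes, the 4 smallest p per list with doxycycline and 2 with Id2-GFP, and the 3 genes most like each factor, without ribosomal protein, mitochondrial, clone or predicted genes. A few genes that this rule names are not reported here. Intervals cover the spread between libraries. Python 3.11.15 and matplotlib 3.10.9 made tables and plots.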

Additional observations from a re-analysis of the deposited data

How the results depend on the processing

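After doxycycline, 5 of the 6 genes passed whichever single library was left out, and their directions held under every scaling tried. With the replicate block Cebpe passed (0.28, adjusted p = 0.0271), and no other call among the 6 genes changed in either comparison. Leaving out 1 library at a time, the doxycycline changes ran from -0.44 to -0.36 for Cebpa, 0.86 to 1.08 for Cebpb, 0.53 to 0.64 for Cebpd, 0.10 to 0.42 for Cebpe, 0.51 to 0.58 for Sfpi1 and -0.61 to -0.51 for Cebpz. The share of Cebpe moved by -0.46 percentage points with doxycycline and had no settled sign (0.813 on raw reads, -2.49 to 1.13 with 1 library left out), nor did it with Id2-GFP (-6.65 to 7.76).

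With Id2-GFP the count of genes past the threshold was 2, and it was 35 with the replicate block, 1 above a mean log2 CPM of 2, 0 without both libraries of replicate 1 or of replicate 2, and 0 to 3 with 1 library left out. None of the 6 genes passed with Id2-GFP under any of these. Small Id2 differences changed sign. Cebpb ran from -0.42 to 0.09 with 1 library left out, and from -0.45 to 0.23 without both libraries of a replicate number. Cebpe, which followed the replicate number, ran from -0.98 to 0.59 with 1 library left out, which breaks a pair. It was 0.02 without both of replicate 2. Cebpz was 0.047 with library totals, 0.025 with median-of-ratios scaling or library weights, 0.032 with quantile normalization, -0.078 to 0.089 without both of a number and -0.06 to 0.099 with 1 library left out. The cause was not tested. The count models planned as alternatives were not run, because the deposited values are log2. Voom weights on the recovered reads, chosen after seeing the files, gave the same calls for the 6 genes.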
